A study of Homo sapiens with 18 samples.

Results

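Selenoproteins are proteins that carry selenocysteine, the selenium analogue of cysteine, and 10 of their genes were examined: GPX1, GPX4, SELENOW, SELENOH, SELENOM, SELENOK, SELENOS, SELENOT, SELENOF and SEPHS2. The genes were taken by symbol from an expression table of 36576 genes, together with all their peaks in 2 deposited tables of differential m6A (N6-methyladenosine, an internal methyl mark of mRNA). The list was chosen from these genes with measured values of the same libraries in view, and which values were used is not stated, so the expression of the 10 genes is given as a description and supports nothing further. No p of expression is printed for them. Whether a gene passed the threshold used for all genes is stated only to set the count beside the share of all genes that did. The authors' p of the m6A peaks is printed as they gave it, under the same limit. The cells carry the label A549, a line from human lung adenocarcinoma. A control group received no material, the BPQD group received black phosphorus quantum dots at 10 mg/L and the TiO2 group titanium dioxide at 100 mg/L, both for 24 h and all in DMEM/F-12 medium. For each of the 3 groups there were 3 libraries of input RNA and 3 of RNA immunoprecipitated for m6A. The series asks whether the nanomaterials altered RNA methylation. BPQD and TiO2 were given at unequal doses, so BPQD and TiO2 are set side by side as the exposures given. The labels do not say that replicates came from separate cultures, so the spread between them may be technical.

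Selenocysteine is inserted at UGA codons, which otherwise stop translation, when the mRNA carries a hairpin in its 3′ UTR called the SECIS element. The protein SECISBP2 binds that hairpin and the elongation factor EEFSEC delivers the charged tRNA. The amino acid is made on its tRNA from selenophosphate, the product of SEPHS2, which is itself a selenoprotein. Among the best known members are the glutathione peroxidases: GPX1 reduces hydrogen peroxide in the cytosol, and GPX4 reduces lipid hydroperoxides in membranes and holds off ferroptosis, an iron-dependent form of cell death. Many selenoprotein mRNAs also depend on selenium supply for their stability, and that of GPX1 is known as one of the most sensitive.

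The promoter sequences of the genes that were lowest relative to control under BPQD (GPX1, GPX4, SELENOW and SELENOH) and of SEPHS2 are shown first, as a description. SEPHS2 was a little higher but did not pass the threshold used for all genes. Promoter sequences by RefSeq (GRCh38.p14) were at hand for 9 of the 10 genes, with no entry for SELENOM. The RefSeq start of SELENOM lies 12501 bases from its start in the expression data. Each sequence holds the 250 bases before the outermost RefSeq start, written 5′ to 3′ on the strand of the gene: chr3:49358354-49358603 (minus) for GPX1, chr19:1103744-1103993 (plus) for GPX4, chr19:47778453-47778702 (plus) for SELENOW, chr11:57741241-57741490 (plus) for SELENOH and chr16:30445875-30446124 (minus) for SEPHS2. By the starts in the expression data some of these windows lie inside the gene. SEPHS2 starts there at 30446181 and SELENOT at 150602875, so their windows lie wholly inside. SELENOH starts there at 57741250, so nearly all of its window does. The 2 starts lay 307 (SEPHS2), 446 (SELENOT), 241 (SELENOH), 118 (SELENOW), 68 (GPX4) and 5 (GPX1) bases apart. Capitals mark the E-box CACGTG and the CCAAT box, which reads ATTGG where it lies on the other strand.
GPX1: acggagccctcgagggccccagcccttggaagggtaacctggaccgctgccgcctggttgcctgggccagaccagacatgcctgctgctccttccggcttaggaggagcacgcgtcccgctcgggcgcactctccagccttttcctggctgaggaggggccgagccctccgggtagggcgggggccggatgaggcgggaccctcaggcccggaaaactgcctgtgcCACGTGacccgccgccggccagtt
GPX4: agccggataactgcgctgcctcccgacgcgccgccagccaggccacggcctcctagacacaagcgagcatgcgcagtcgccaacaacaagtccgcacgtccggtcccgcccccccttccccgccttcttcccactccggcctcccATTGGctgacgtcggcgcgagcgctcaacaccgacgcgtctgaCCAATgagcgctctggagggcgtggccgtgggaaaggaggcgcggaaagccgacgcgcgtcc
SELENOW: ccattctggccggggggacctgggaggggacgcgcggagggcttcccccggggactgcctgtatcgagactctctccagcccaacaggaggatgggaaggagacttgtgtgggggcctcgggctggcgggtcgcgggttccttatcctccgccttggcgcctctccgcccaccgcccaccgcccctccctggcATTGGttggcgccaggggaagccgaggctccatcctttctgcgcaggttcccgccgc
SELENOH: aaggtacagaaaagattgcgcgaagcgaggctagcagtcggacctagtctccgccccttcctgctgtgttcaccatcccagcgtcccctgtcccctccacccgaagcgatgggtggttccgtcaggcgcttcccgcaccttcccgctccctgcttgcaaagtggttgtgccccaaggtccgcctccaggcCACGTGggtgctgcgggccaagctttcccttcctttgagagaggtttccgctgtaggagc
SEPHS2: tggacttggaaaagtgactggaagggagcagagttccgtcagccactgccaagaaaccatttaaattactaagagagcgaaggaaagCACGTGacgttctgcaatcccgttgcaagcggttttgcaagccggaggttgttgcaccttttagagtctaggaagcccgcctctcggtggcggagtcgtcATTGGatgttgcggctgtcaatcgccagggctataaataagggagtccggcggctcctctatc
The motifs were chosen after these sequences had been seen and were searched on both strands. The E-box was present in 4 of the 9 promoters, against 6.49% of 27305 promoters of the same length, 1 per gene. It lay 24 to 19 bases before the RefSeq start in GPX1, 60 to 55 in SELENOH, 11 to 6 in SELENOS and 163 to 158 in SEPHS2. Of these genes GPX1 and SELENOH were lower under BPQD, SELENOS was level and SEPHS2 was a little higher, short of the threshold. Since such values may have chosen the genes, nothing is read from this. The CCAAT box was present in 5 of the 9 (GPX4, SELENOW, SELENOK, SELENOS and SEPHS2), against 33.04% of all promoters. The GC box GGGCGG, not capitalised here, was present in 7 of the 9, against 42.31%. The antioxidant response element TGACNNNGC was present in 1 of the 9, SELENOK, against 11.03%. No matches of different motifs overlapped. The 9 windows had a GC content of 52.8% (SEPHS2) to 74.8% (SELENOF), against a mean of 56.87%. A match describes the letters and does not show a factor bound there.

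Expression was read as FPKM, fragments per kilobase of transcript scaled to library size, from the 9 input libraries. FPKM is corrected for length, so levels can be compared between genes. It is relative to each library's RNA, so fewer transcripts per cell and fewer cells that express a gene cannot be told apart. The FPKM of all genes summed to 212891 to 213976 in the BPQD libraries, 221580 to 222818 in control and 219458 to 219676 under TiO2. The main fit did not correct for this. Read counts are not given, so depth is unknown and precision rests on 3 libraries per group. Libraries of a group correlated at r = 0.9802 to 0.9827 across genes, and no library stood apart from its group by that measure. The keratins KRT7, KRT8 and KRT18 were high in all 9 libraries, with the lowest value of any at 205.7 FPKM, but they were lower in exposed cells. Under BPQD all 3 fell, by 0.48 (KRT7), 0.44 (KRT8) and 0.51 (KRT18) on the log2 scale, and under TiO2 KRT7 fell by 0.23 and KRT18 by 0.28, with adjusted p (limma) from 2.33e-06 to 0.0279. The other epithelial genes of the list were low beside the keratins, EPCAM at 2.02 to 3.09 and CDH1 at 0.242 to 0.409 FPKM. So were the A549 markers AKR1B10 (0.41 to 0.998 FPKM) and AKR1C1 (0.362 to 1.14 FPKM). The lung lineage genes SFTPB and NKX2-1 and the A549 marker ALDH1A1 did not pass 0.117 FPKM. CDKN2A, which is deleted in A549, was read at 19.26 to 27.36 FPKM, so the label A549 was not borne out by these lung, A549 and deletion markers. The summed level of 6 fibroblast markers was 28.1 to 28.8 FPKM in control, 13.1 to 24.1 under BPQD and 26.2 to 35.7 under TiO2, and most of it was LUM (8.37 to 30.8), which was not called against control. The other 2 fibroblast markers measured fell under both materials, COL1A1 by 0.42 under BPQD and 0.64 under TiO2 and PDGFRB by 0.61 and 0.37 (adjusted p from 0.000153 to 0.00229). The leukocyte genes PTPRC, CD3E and LST1 were at or near 0 in every library. CD68 rose under TiO2 from 11.65 to 20.11 FPKM (0.73, adjusted p = 0.000946, limma) and was at 11.96 under BPQD. CD14, too low to be fitted, averaged 0.32 FPKM in control, 0.173 under BPQD and 0.245 under TiO2, so it did not follow CD68. Of the endothelial markers PECAM1, CDH5, VWF and KDR, CDH5 fell under BPQD from 3.12 to 1.19 FPKM (−0.91, adjusted p = 0.0017) and the others stayed under 0.187 FPKM. The part of these marker levels in the selenoprotein results was not tested.

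In control cells GPX1 and GPX4 were by far the most abundant of the 10 genes, at 81.2 ± 2.36 and 79.3 ± 1.69 FPKM (mean ± SD, n = 3 libraries here and below), and these did not differ beyond their spread. SEPHS2 followed at 17.1 FPKM, then SELENOK, SELENOT, SELENOF and SELENOH between 13.35 and 11.97. SELENOK and SELENOT did not differ beyond their spread, and the control libraries of SELENOF ran from 7.879 to 20.6 FPKM and cross the levels of SELENOW, SEPHS2 and all genes between them. SELENOW at 8.73, SELENOS at 7.57 and SELENOM at 5.29 FPKM were the least abundant. All 10 genes passed the filter used for the fit over all genes, a mean of at least 1 FPKM over the 9 libraries. Under BPQD the order at the top changed, and GPX4 at 47.7 lay above GPX1 at 34.2 FPKM. Under TiO2 GPX1 was highest at 162.7 FPKM on average, with a wide spread described below.

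**Figure D1:**
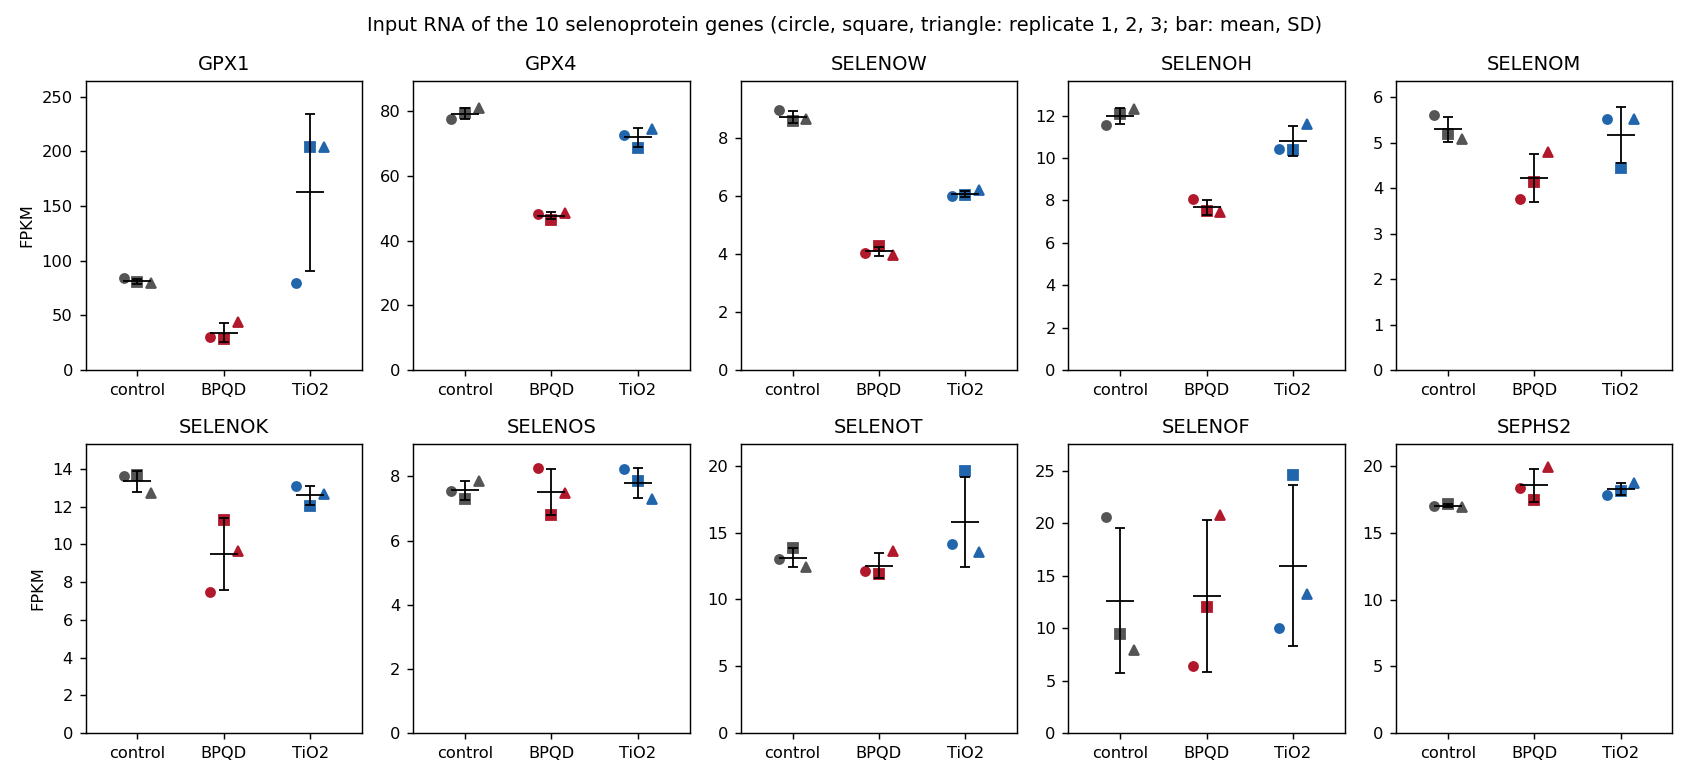
FPKM of each of the 10 genes in the 9 input libraries, 1 panel per gene with its own axis from 0. Points are single libraries (circle, square and triangle for replicates 1, 2 and 3) and bars are the mean ± SD of 3 libraries. The BPQD points of GPX4, SELENOW and SELENOH lie close together below both other groups, while those of SELENOF spread as widely within a group as between groups.

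GPX1 (ENSG00000233276, chromosome 3, 49357176 to 49358358, minus strand) was read at 83.85, 80.21 and 79.42 FPKM in the control libraries, at 30.0, 28.6 and 44.01 under BPQD, and at 80.04, 203.8 and 204.2 under TiO2. All 3 BPQD libraries lay below all others. Under TiO2 the first library sat at the control level and the other two stood well above it, so the groups overlapped. The log2 fold change, taken on log2(FPKM + 1) here and below and given ± SE, was −1.25 ± 0.35 for BPQD against control, 0.87 ± 0.35 for TiO2 against control and −2.12 ± 0.35 for BPQD against TiO2. The SE is the same in each because the fit shares 1 spread over all 9 libraries. For GPX1 the TiO2 libraries were the widest part of it, with an SD of 71.6 FPKM against 2.36 in control and 8.53 under BPQD. A gene is counted as called when its Benjamini-Hochberg adjusted p over all 12224 genes fitted with limma was under 0.05. By this rule the BPQD difference from control was called, but the call was lost in 6 of 19 alternatives, including those without control replicate 1, 2 or 3 and without BPQD replicate 1 or 2. It was kept with only the 6 libraries compared, where TiO2 has no part in the spread. The TiO2 difference was not called with all libraries and was called without TiO2 replicate 1, where it was 1.32.

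That single library did not stand apart as a whole. In TiO2 replicate 1, 17 of 3936 genes averaging 10 FPKM or more were 2-fold or more below both other TiO2 libraries, GPX1 among them, and the same count ranged from 11 to 22 over the 9 libraries. TXNRD1, the cytosolic thioredoxin reductase and also a selenoprotein, was likewise lower in TiO2 replicate 1 (76.3 FPKM) than in replicates 2 and 3 (133.8 and 128.0). RHOA, the small GTPase gene beside GPX1 on the same strand, was even over all 9 libraries at 210.3 to 239.2 FPKM. GPX1P1, a pseudogene copy of GPX1 on chromosome X whose reads may be divided with those of GPX1, was read at 4.51 ± 0.402 FPKM in control, 1.82 ± 0.236 under BPQD and 3.64 ± 0.257 under TiO2. It was thus lower under BPQD as GPX1 was, but its TiO2 libraries (3.69, 3.87 and 3.37) did not divide as those of GPX1 did. The levels of GPX1 are uncertain to the extent that the counting shared reads with this copy. RHOA and GPX1P1 were chosen after their values had been seen.

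**Figure D2:**
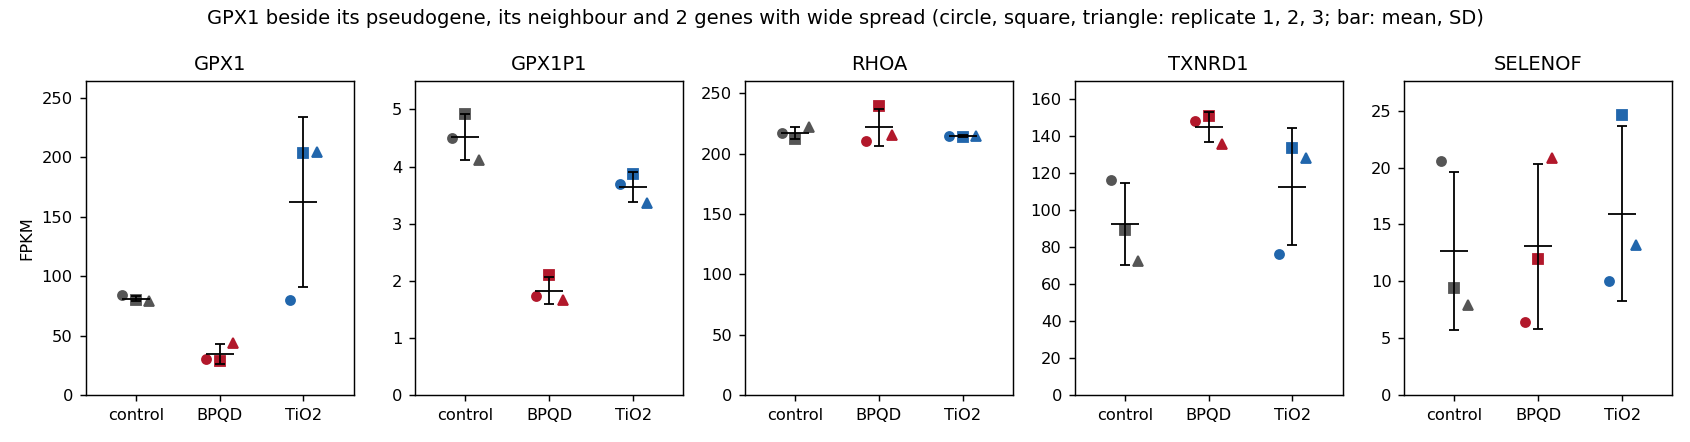
FPKM per input library of GPX1, its pseudogene GPX1P1, its neighbour RHOA, and TXNRD1 and SELENOF, each on its own axis from 0, with replicates 1, 2 and 3 as circle, square and triangle and bars for the mean ± SD of 3 libraries. TiO2 replicate 1 is the low point of its group for GPX1 (80.04 FPKM), TXNRD1 (76.3 FPKM) and SELENOF (10.02 FPKM) and not for GPX1P1 or RHOA.

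GPX4 (ENSG00000167468, chromosome 19, 1103926 to 1106791, plus strand) was read at 77.53, 79.39 and 80.91 FPKM in control, 48.09, 46.5 and 48.62 under BPQD and 72.5, 68.78 and 74.45 under TiO2. The 3 groups did not overlap: control was highest, TiO2 a little lower and BPQD lowest, with a spread of at most 4.01% of the mean in any group. The log2 fold change was −0.72 ± 0.03 for BPQD and −0.14 ± 0.03 for TiO2 against control, and −0.58 ± 0.03 for BPQD against TiO2. All 3 values were past the threshold.

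The genes whose levels followed GPX4 most closely over the 9 libraries, among 3929 other genes averaging 10 FPKM or more, were MYL9 (Pearson r = 0.9954), AKR1B1 (r = 0.9951), KIF26A (r = 0.9941), FGD5-AS1 (r = 0.9932) and ATG101 (r = 0.9928). These correlations are over 9 libraries in 3 separate groups, so they describe the same order of groups. MYL9, a myosin light chain, was at 64.4 ± 0.486 FPKM in control, 45.6 ± 0.912 under BPQD and 59.2 ± 0.804 under TiO2. AKR1B1, the aldose reductase, was at 81.0 ± 0.278, 61.6 ± 0.593 and 77.4 ± 1.32 FPKM. Among the 10 genes, SELENOH (r = 0.987) and SELENOW (r = 0.936) were nearest to GPX4, SELENOK (r = 0.823), SELENOM (r = 0.792) and GPX1 (r = 0.743) came next, and SEPHS2 ran the other way at r = −0.532.

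SELENOW, SELENOH and SELENOM are small proteins with a thioredoxin-like fold. SELENOW (ENSG00000178980, chromosome 19, 47778585 to 47784686, plus strand), known from muscle, was read at 8.969, 8.591 and 8.641 FPKM in control, 4.03, 4.261 and 3.982 under BPQD and 6.0, 6.035 and 6.199 under TiO2. The groups were fully separate, with TiO2 midway between control and BPQD. The log2 fold change was −0.94 ± 0.03 for BPQD and −0.46 ± 0.03 for TiO2 against control, and −0.48 ± 0.03 for BPQD against TiO2, all past the threshold. With a smaller pseudocount of 0.1 the BPQD value was −1.08, since adding 1 understates the change of a gene at this level.

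SELENOH (ENSG00000211450, chromosome 11, 57741250 to 57743554, plus strand), a nucleolar protein, was read at 11.54, 12.08 and 12.3 FPKM in control, 8.086, 7.498 and 7.463 under BPQD and 10.41, 10.38 and 11.62 under TiO2. The BPQD libraries lay below all others, and the third TiO2 library reached into the control range. The log2 fold change was −0.58 ± 0.05 for BPQD against control and −0.44 ± 0.05 for BPQD against TiO2, both called. TiO2 against control was −0.14 ± 0.05, not called with all libraries and called without TiO2 replicate 3. SELENOM (ENSG00000198832, chromosome 22, 31104772 to 31120069, minus strand), which sits in the lumen of the endoplasmic reticulum (ER), was read at 5.612, 5.182 and 5.088 FPKM in control, 3.759, 4.136 and 4.803 under BPQD and 5.513, 4.453 and 5.525 under TiO2. Its BPQD libraries lay below the control libraries but the third came close to them. The difference of −0.27 ± 0.09 was called, and the call was lost in 12 of 18 alternatives.

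The other ER selenoproteins were SELENOK, SELENOS, SELENOT and SELENOF, and of these SELENOK alone had BPQD libraries that were all below control. SELENOK (ENSG00000113811, chromosome 3, 53884417 to 53891962, minus strand), an ER membrane protein that works with the palmitoyltransferase ZDHHC6, was read at 13.64, 13.68 and 12.72 FPKM in control, 7.491, 11.29 and 9.645 under BPQD and 13.08, 12.05 and 12.68 under TiO2. Its BPQD libraries were spread over 20.1% of their mean (SD) but did not overlap with either other group. The log2 fold change was −0.47 ± 0.12 for BPQD against control, past the threshold, and −0.39 ± 0.12 for BPQD against TiO2, whose call was lost in 9 of 19. For TiO2 against control it was −0.08 ± 0.12, not called.

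SELENOS (ENSG00000131871, chromosome 15, 101270817 to 101277500, minus strand), which links the ATPase VCP to the retrotranslocation channel of misfolded ER proteins, was read at 7.549, 7.282 and 7.864 FPKM in control, 8.246, 6.797 and 7.483 under BPQD and 8.238, 7.866 and 7.291 under TiO2. The groups overlapped throughout, and the BPQD difference was −0.01 ± 0.07. SELENOT (ENSG00000198843, chromosome 3, 150602875 to 150630445, plus strand), an ER membrane oxidoreductase, was read at 13.05, 13.89 and 12.45 FPKM in control, 12.11, 11.89 and 13.6 under BPQD and 14.13, 19.66 and 13.58 under TiO2. One TiO2 library was high and the groups overlapped, with a TiO2 difference of 0.23 ± 0.13 that was not called. SELENOT overlaps the start of SERP1 on the other strand, whose TiO2 replicate 2 was also its highest value, 22.25 FPKM against 14.85 and 14.98. Whether the reads were counted by strand is not given, so these genes cannot be fully told apart. SELENOF (ENSG00000183291, chromosome 1, 86862445 to 86914424, minus strand), a partner of the folding sensor UGGT1, was read at 20.6, 9.416 and 7.879 FPKM in control, 6.411, 12.0 and 20.8 under BPQD and 10.02, 24.62 and 13.23 under TiO2. Its SD was 48.1% to 55.5% of the mean in every group, where the median gene averaging 10 FPKM or more had 3.08% to 3.27%, so a change of SELENOF was not measurable here.

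SEPHS2 (ENSG00000179918, chromosome 16, 30443631 to 30446181, minus strand), selenophosphate synthetase, was read at 17.04, 17.15 and 16.98 FPKM in control, 18.35, 17.49 and 19.94 under BPQD and 17.88, 18.17 and 18.78 under TiO2. Every exposed library lay above every control library, by a small margin, and the exposures overlapped. The log2 fold change was 0.12 ± 0.04 for BPQD and 0.09 ± 0.04 for TiO2 against control, neither called. The BPQD difference was called under 3 of 19 alternatives: rescaling each library to the same sum (TPM, 0.18), median centring, and leaving out BPQD replicate 2. That for TiO2 was called under 2, the fit of only the 6 libraries compared and the fit without BPQD replicate 3.

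In counts, 6 of the 10 genes were called lower under BPQD and 0 higher, where 23.4% of 12224 genes were called lower and 20.6% higher. Their median log2 fold change was −0.37, against −0.01 over all genes. By the groups alone, 6 had all BPQD libraries below all control libraries, as had 29.2% of genes, and 1 had all above, as had 26.4%. For TiO2 against control 2 were called lower and 0 higher, beside 20.5% and 17.3% of all genes, and 2 lay wholly below and 1 wholly above control, beside 28.3% and 23.4%. For BPQD against TiO2 5 were called lower and 0 higher, beside 18.6% and 19.0% of genes, and 5 lay wholly below and 0 above, beside 24.9% and 26.2%. Since these values may have chosen the genes, nothing is read from the counts, and the comparisons against control share the same 3 control libraries. Over the 19 alternatives 4 to 6 were called lower under BPQD and 2 or 3 under TiO2. Without GPX1 and SELENOF, the genes with the widest spread, a choice made after the values were seen, 5 of 8 were called lower under BPQD and the median was again −0.37.

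Gene span moves with the direction of change in these libraries. Genes spanning under 10000 bases had a median of −0.08 for BPQD and −0.09 for TiO2 against control, those of 10000 bases or more 0.01 and 0.00. Of 1515 genes under 10000 bases with a mean of 5 to 100 FPKM, 517 were called lower and 196 higher under BPQD, with a median of −0.10. The 7 of the 10 genes that span under 10000 bases (all but SELENOM, SELENOT and SELENOF) had a median of −0.58 under BPQD and −0.08 under TiO2. The part of gene span in the differences was not tested.

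**Figure D3:**
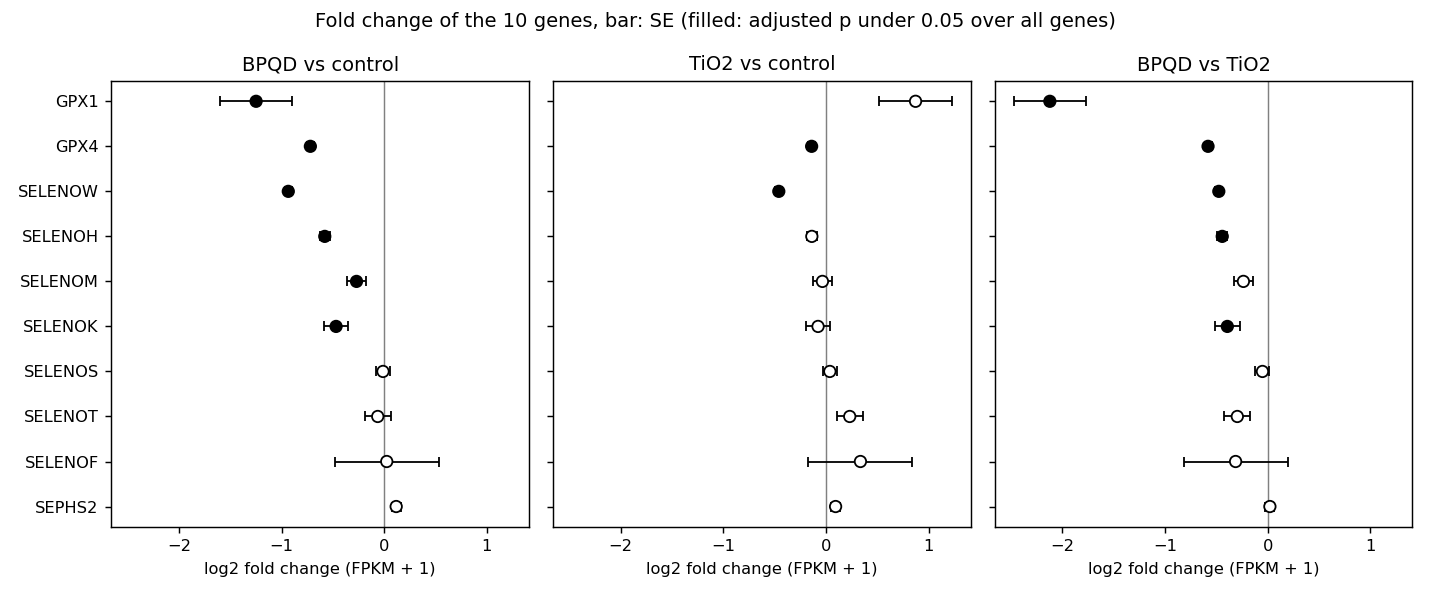
Log2 fold change of FPKM + 1 of the 10 genes in the 3 comparisons, with bars for the SE from limma and filled points for genes with an adjusted p under 0.05 over all 12224 genes. Under BPQD 6 genes are filled and lie left of 0, from SELENOM at −0.27 to GPX1 at −1.25. Under TiO2 only GPX4 and SELENOW are filled, and GPX1 lies right of 0 with a wide bar.

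m6A was read from the authors' deposited table for each material, which gives for each peak a log2 fold change of m6A against control and a p. These are the authors' values, with no spread between libraries. In their table for BPQD 5 of the 10 genes had a peak, 6 peaks in all, and 5 (SELENOM, SELENOK, SELENOS, SELENOT and SELENOF) had none. Of 6196 genes with a mean of 5 to 100 FPKM, 57.23% had a peak in this table, and of the 1515 of these that span under 10000 bases 46.4% did. SELENOM, at a mean of 4.897 FPKM, lies just outside that range. The authors' p was under 0.05 for 4 of the 6 peaks, 3 of them lower and 1 higher, where 27.1% of all 14903 peaks were lower and 37.7% higher at that threshold. The median log2 fold change of the 6 peaks was −0.29, against 0.16 over all peaks. In the authors' table for TiO2 2 of the 10 genes had a peak, beside 52.91% of the same expressed genes and 42.44% of those under 10000 bases. All 3 of those peaks had a p under 0.05, 2 lower and 1 higher, where 23.8% of 12891 peaks were lower and 40.3% higher. The m6A values may also have chosen the genes, so nothing is read from the counts, medians or p of their peaks. Coordinates below are those of the deposited tables, whose headers name no build and whose gene positions match GRCh38.

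In the authors' deposited table for BPQD, the peak of GPX1 covered 119 bases at the very start of the gene (chromosome 3, 49358240 to 49358358), annotated as 5′ UTR, and its m6A was lower by a log2 fold change of −0.32 (p = 5.623e-05). This peak is at the end of the transcript opposite the SECIS element, and the TiO2 table held no peak for the gene. The authors' table gave SELENOH a pair of peaks under both materials. The first, in exon 1 of 5 (chromosome 11, 57741638 to 57741818 under BPQD and 57741638 to 57741758 under TiO2), had an m6A log2 fold change of −0.26 (p = 0.002512) for BPQD and −0.36 (p = 1.202e-05) for TiO2 in the authors' deposited tables. The second, in the 3′ UTR (57742176 to 57742415), had −0.25 (p = 0.001995) for BPQD and −0.20 (p = 0.00389) for TiO2 in the authors' deposited tables. SELENOH was thus lower in m6A at both peaks under both materials, while its RNA was called lower under BPQD and was not called under TiO2.

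SEPHS2 was the only one of the 10 genes with a higher m6A value in the authors' deposited tables. Its peak covered 2343 bases (chromosome 16, 30443631 to 30445973), nearly the whole of the gene, so its annotation as 5′ UTR places it only in part. The authors' deposited log2 fold change was 0.22 (p = 2.512e-14) for BPQD and 0.21 (p = 3.162e-14) for TiO2. The peaks of GPX4 and SELENOW, found in the BPQD table alone, had no p under 0.05. For GPX4, 60 bases in exon 3 of 5 (chromosome 19, 1106066 to 1106125), the authors' table gave −2.17 with p = 0.2799, the largest value and the least certain. For SELENOW, 211 bases in exon 1 of 5 (chromosome 19, 47780202 to 47780412), the authors' table gave −0.62 with p = 0.05623. A gene with no peak in a table may have had m6A below what the authors' peak calling found.

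**Figure D4:**
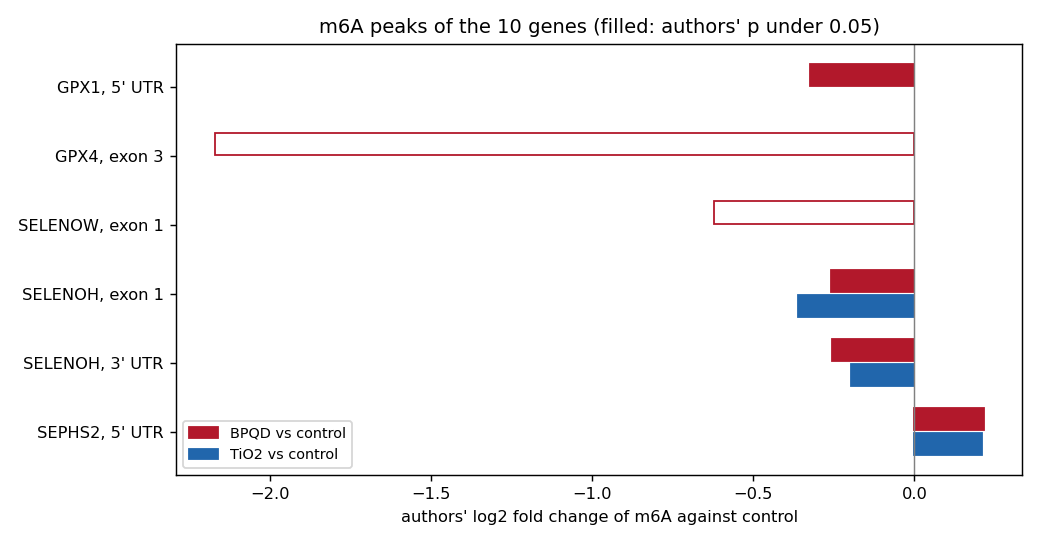
The authors' log2 fold change of m6A against control for each peak of the 10 genes, with bars for BPQD in red and TiO2 in blue, filled where the authors' p is under 0.05. The peaks of GPX1 and SELENOH lie left of 0 and that of SEPHS2 right of 0, and the long open bar is the GPX4 peak of 60 bases.

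The 15 other human selenoprotein genes listed were read from the same fit. They are the genes left after the 10 were chosen with measured values in view. Their counts are thus a description and not independent of that choice. GPX6 and SELENOV had no row, and GPX2, DIO1, DIO3 and SELENOP did not reach a mean of 1 FPKM, which left 9. Under BPQD 7 of the 9 fell and 1 rose, where 23.4% of all genes fell and 20.6% rose, and their median was −0.38. GPX3, the secreted glutathione peroxidase, fell by 0.59 ± 0.07 on the log2 scale (adjusted p = 0.00034, limma), from 2.18 ± 0.0675 to 1.11 ± 0.0609 FPKM. SELENON, an ER protein involved in calcium handling in muscle, fell by 0.55 ± 0.04 (adjusted p = 3.16e-05). MSRB1, the methionine sulfoxide reductase, fell by 0.46, DIO2, which activates thyroid hormone, by 0.40, TXNRD3 by 0.38, the mitochondrial TXNRD2 by 0.31 and SELENOO by 0.29, with adjusted p from 0.000156 to 0.00898. Adding 1 to FPKM understates the change of the genes at the lowest levels, and by the ratio of mean FPKM GPX3 was at 0.51 of control, TXNRD3 at 0.603, SELENON at 0.666, MSRB1 at 0.699, DIO2 at 0.734, TXNRD2 at 0.765 and SELENOO at 0.798. SELENOI, an enzyme of ethanolamine phospholipid synthesis, rose by 0.24 ± 0.04 (adjusted p = 0.0032), from 8.04 ± 0.171 to 9.66 ± 0.0265 FPKM.

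TXNRD1 was the abundant exception to these lower values. It was read at 116.0, 89.02 and 72.27 FPKM in control and at 148.3, 150.9 and 135.7 under BPQD, so the groups did not overlap, and the log2 fold change was 0.67 ± 0.24 (adjusted p = 0.053, limma). The control libraries were widely spread, and the value passed the threshold in 7 of the alternatives, among them that without control replicate 1 (adjusted p = 0.032) and that without TiO2 replicate 1 (adjusted p = 0.0144). Under TiO2 3 of the 9 fell and 1 rose, beside 20.5% and 17.3% of all genes: SELENON was at −0.29, DIO2 at −0.27 and TXNRD2 at −0.20 (adjusted p 0.000756, 0.00148 and 0.00696), and SELENOI at 0.16 (adjusted p = 0.0215). Between the materials 6 of the 9 were lower under BPQD and 0 higher, beside 18.6% and 19.0% of all genes, with GPX3 at −0.60 (adjusted p = 0.000386) and MSRB1 at −0.41 (adjusted p = 0.000344). The TiO2 call of SELENOI was lost in 6 alternatives, among them those without control replicate 2 or 3 and without TiO2 replicate 2 or 3. With a mean of 5 FPKM or more required, which leaves out GPX3, TXNRD2 and TXNRD3, 4 fell under BPQD.

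Of 14 measured of 15 listed genes of the selenocysteine machinery (its synthesis, its insertion and selenium supply), 5 rose and 5 fell under BPQD, with a median of −0.03. Over all genes 20.6% rose and 23.4% fell under BPQD, and 17.3% rose and 20.5% fell under TiO2. Between the materials 19.0% of all genes were higher and 18.6% lower under BPQD. EEFSEC, the elongation factor of selenocysteine, fell by 0.54 ± 0.05 (adjusted p = 0.00017, limma), from 9.34 ± 0.261 to 6.11 ± 0.477 FPKM, and TRNAU1AP, which binds the selenocysteine tRNA, fell by 0.36 ± 0.04 (adjusted p = 0.00038). SARS1, which charges that tRNA with serine, fell by 0.26 (adjusted p = 0.000385). NCL, nucleolin, which binds SECIS elements, rose by 0.53 ± 0.03 (adjusted p = 1.58e-05), from 104.5 to 151.9 FPKM. ALKBH8 and TRIT1, which modify that tRNA, rose by 0.45 (adjusted p = 0.00139) and 0.42 (adjusted p = 0.0136). Under TiO2 3 rose (LRP8, a receptor that takes up the selenium carrier SELENOP, by 0.30, NCL by 0.27 and ALKBH8 by 0.21) and EEFSEC fell by 0.24, with adjusted p from 0.000447 to 0.0472. Between the materials 2 were higher under BPQD (NCL by 0.27, ALKBH8 by 0.24) and 5 lower, led by SARS1 at −0.35, EEFSEC at −0.30, TRNAU1AP at −0.28 and LRP8 at −0.18 (adjusted p from 0.000123 to 0.0263). The TiO2 call of ALKBH8 was lost in 10 alternatives, among them leaving out any 1 library other than control replicate 3. Between the materials the call of ALKBH8 was lost without BPQD replicate 1 or 3 or any TiO2 library, and that of LRP8 without BPQD replicate 2 or TiO2 replicate 1 or 2. With a mean of 5 FPKM or more required, 2 of this list rose under BPQD.

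**Figure D5:**
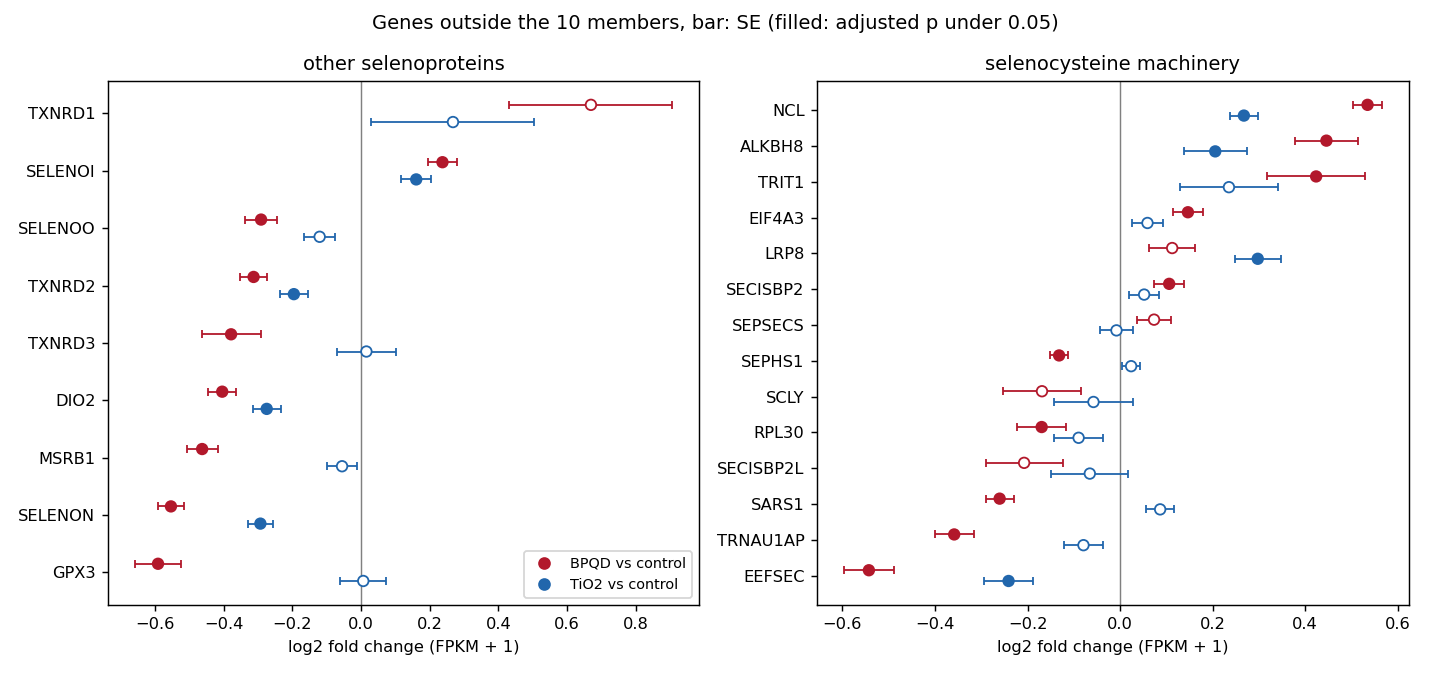
Log2 fold change of FPKM + 1 against control for the 9 other selenoprotein genes (left) and 14 genes of the selenocysteine machinery (right), BPQD in red and TiO2 in blue, with bars for the SE and filled points for an adjusted p under 0.05. On the left 7 red points are filled left of 0 and TXNRD1 lies right of 0 with a wide bar, and on the right the filled points lie on both sides.

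Other antioxidant genes were counted from lists chosen, like the members, with earlier results known. Of 18 measured genes of the selenium-free peroxidases and the thioredoxin system, 6 rose and 5 fell under BPQD, 5 rose and 2 fell under TiO2, and 3 were higher and 8 lower under BPQD than under TiO2. Over all genes the shares were 20.6% and 23.4%, 17.3% and 20.5%, and 19.0% and 18.6%, in the same order. The peroxiredoxin PRDX5 fell under BPQD by 0.41 ± 0.03 (adjusted p = 3.18e-05, limma) and PRDX2 by 0.31 ± 0.02 (adjusted p = 3.53e-05), while TXNIP, an inhibitor of thioredoxin, rose by 0.48 ± 0.04 (adjusted p = 0.000109) and SRXN1, which restores oxidised peroxiredoxins, by 0.29 (adjusted p = 9.5e-05). TXN2, mitochondrial thioredoxin, fell by 0.25 (adjusted p = 0.0168, lost without control replicate 3 or BPQD replicate 3). GLRX3, a glutaredoxin, rose by 0.42 ± 0.07 under TiO2 (adjusted p = 0.00259) and by 0.20 under BPQD (adjusted p = 0.0488), the second a call lost in 9 alternatives, without control replicate 1 or 3, BPQD replicate 2 or 3 or TiO2 replicate 1 or 3 among them. Under TiO2 PRDX2 fell by 0.27 (adjusted p = 9.38e-05), while PRDX3 rose by 0.22 (adjusted p = 0.000168), thioredoxin (TXN) by 0.16 (adjusted p = 0.00186) and PRDX1 by 0.12 (adjusted p = 0.000239). Catalase (CAT) rose under TiO2 by 0.29 ± 0.04 (adjusted p = 0.00115) and fell under BPQD by 0.12 (adjusted p = 0.042), a call lost in 11 alternatives, leaving out either control replicate 2 or 3, BPQD replicate 1 or 2, or any TiO2 library among them. Over the alternatives 3 to 6 of this list rose and 3 to 5 fell under BPQD, and 1 or 2 fell under TiO2. Between the materials TXNIP was at 0.53, SRXN1 at 0.22, CAT at −0.42, PRDX5 at −0.40, GLRX3 at −0.22 and SOD1, a superoxide dismutase, at −0.22 (adjusted p from 3.94e-05 to 0.0406). There GLRX3 lost its call without control replicate 1, BPQD replicate 1 or 3 or any TiO2 library, and SOD1 without control replicate 1, BPQD replicate 1 or 2 or TiO2 replicate 2. The count of this list lower under BPQD than under TiO2 ranged from 2 to 8.

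Of 8 measured genes of glutathione supply, 4 rose and 2 fell under BPQD, 2 rose and 2 fell under TiO2, and 3 were higher and 2 lower under BPQD than under TiO2. Over all genes the shares were 20.6% and 23.4%, 17.3% and 20.5%, and 19.0% and 18.6%, in the same order. SLC7A11, the cystine importer that feeds glutathione synthesis for GPX1 and GPX4, rose by 0.67 ± 0.03 under BPQD (adjusted p = 1.11e-05) and by 0.33 ± 0.03 under TiO2 (adjusted p = 0.000301, limma). It was read at 6.45 ± 0.255, 10.9 ± 0.183 and 8.35 ± 0.223 FPKM in control, BPQD and TiO2, so its order of groups was the reverse of that of GPX4. MGST1, a microsomal glutathione transferase, rose by 0.27 under BPQD (adjusted p = 0.00131) and by 0.42 ± 0.04 under TiO2 (adjusted p = 0.000226). Under BPQD glutathione synthetase (GSS) fell by 0.22 (adjusted p = 0.00532), SLC3A2, the partner chain of SLC7A11, rose by 0.22 (adjusted p = 0.03) and glutathione reductase (GSR) by 0.19 (adjusted p = 0.0028), while under TiO2 GSR fell by 0.11 (adjusted p = 0.0337). Between the materials SLC7A11 was at 0.35, GSR at 0.29, SLC3A2 at 0.21, GSS at −0.18 and MGST1 at −0.14 (adjusted p from 0.000222 to 0.0403). The BPQD call of SLC3A2 was lost without control replicate 2 or 3 or BPQD replicate 2 or 3, and the TiO2 call of GSR without control replicate 1 or 2, BPQD replicate 1 or TiO2 replicate 1 or 3. Between the materials SLC3A2 lost its call without any 1 library other than control replicate 1 or BPQD replicate 1, and MGST1 without BPQD replicate 1 or 2 or TiO2 replicate 2 or 3.

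Of 10 measured genes of lipid peroxidation and ferroptosis, the setting in which GPX4 is best known, 0 rose and 2 fell under BPQD, 4 rose and 0 fell under TiO2, and 0 were higher and 5 lower under BPQD than under TiO2. Over all genes the shares were 20.6% and 23.4%, 17.3% and 20.5%, and 19.0% and 18.6%, in the same order. ACSL4, which supplies the polyunsaturated lipids that GPX4 protects, rose under TiO2 from 13.9 ± 0.0855 to 21.7 ± 0.492 FPKM (0.61 ± 0.03, adjusted p = 1.04e-05, limma), and stood at 14.4 ± 0.455 under BPQD. The ferritin light chain FTL fell by 0.17 under BPQD (adjusted p = 0.000435) and rose by 0.20 under TiO2 (adjusted p = 0.000319), though with quantile normalization the BPQD value was 0.00. The heavy chain FTH1 rose by 0.78 ± 0.21 under TiO2 (adjusted p = 0.0206), from control libraries of 2972, 1538 and 2518 FPKM, and this call was lost without any 1 of the TiO2 libraries (adjusted p from 0.052 to 0.0551). The FTH1 value was 0.51 without control replicate 2 (adjusted p = 0.00171, limma) and 0.46 with quantile normalization, where the call was lost (adjusted p = 0.145). GCH1, which starts the synthesis of the antioxidant tetrahydrobiopterin, rose by 0.28 under TiO2 (adjusted p = 0.0224, lost without control replicate 2 and without TiO2 replicate 1 or 2), and POR, an oxidoreductase that promotes lipid peroxidation, fell by 0.40 under BPQD (adjusted p = 0.000317). Between the materials FTH1 was at −0.72, ACSL4 at −0.56, POR at −0.48, GCH1 at −0.46 and FTL at −0.37 (adjusted p from 1.17e-05 to 0.0284). FTH1 lost that call without any 1 of the BPQD or TiO2 libraries and with quantile normalization (−0.05, adjusted p = 0.874). It kept the call with only the 6 libraries compared (adjusted p = 1.79e-05, limma) and without control replicate 2 (adjusted p = 0.000209). Its BPQD libraries ran from 2346 to 2369 FPKM and its TiO2 libraries from 3857 to 3925, while the fit shares 1 spread with control. Over the alternatives 0 to 3 of this list rose under BPQD (3 with TPM scaling, 1 without BPQD replicate 3) and 2 to 6 under TiO2 (2 without TiO2 replicate 2).

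Of 12 measured partners of the ER selenoproteins, 4 rose and 1 fell under BPQD, 2 rose and 2 fell under TiO2, and 3 were higher and 2 lower under BPQD than under TiO2. Over all genes the shares were 20.6% and 23.4%, 17.3% and 20.5%, and 19.0% and 18.6%, in the same order. UGGT1, the partner of SELENOF, rose by 0.24 ± 0.02 under BPQD (adjusted p = 7.04e-05, limma), UBXN6, a cofactor of VCP, fell by 0.38 ± 0.05 (adjusted p = 0.00042), and ZDHHC6, the partner of SELENOK, rose by 0.19 ± 0.03 under TiO2 (adjusted p = 0.00148). Also under BPQD SEL1L, a subunit of the ER degradation complex, rose by 0.19, UGGT2 by 0.10 and VCP by 0.07 (adjusted p from 0.000955 to 0.0327). Under TiO2 SEL1L rose by 0.18, UBXN6 fell by 0.18 and VCP by 0.12 (adjusted p from 0.0013 to 0.0149). Between the materials ZDHHC6 was at −0.26, UBXN6 at −0.20, UGGT1 at 0.20, VCP at 0.19 and UGGT2 at 0.10 (adjusted p from 0.000133 to 0.0456). The BPQD call of UGGT2 was lost without control replicate 1 or 3 or BPQD replicate 1 or 2, its call between the materials without any 1 of the 9 libraries, and the TiO2 call of UBXN6 without control replicate 3.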

How the data were processed

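Expression came from the 9 input libraries of cells labelled A549 (3 per group) and m6A from the tables the authors made with the 9 m6A libraries. Groups were taken from the sample titles. The authors deposited FPKM per gene and library, and the submitters' processing notes name HISAT2 and StringTie 1.3.0 without their roles, and a mouse build (mm10), although the gene IDs are human. All 24560 symbols found in RefSeq GRCh38.p14 lay on the same chromosome and 88.1% started within 1000 bases, so coordinates are read as GRCh38. Per the file headers, the authors deposited for each m6A peak a log2 fold change and its p-value, with a score that is the log10 of an FDR. Which peak caller and test were used, and whether replicates were pooled, is not stated. The peak tables also hold 12 columns of FPKM per sample, which were not used.

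The 12224 genes averaging 1 FPKM or more were fitted as log2(FPKM + 1) in R 4.3.3 with limma 3.58.1 (trend, all 9 libraries, two-sided, Benjamini-Hochberg). No counts were given, so no count model was used, and depth is unknown. The steps were tested on simulated data. Tables and plots used Python 3.11.15, pandas 2.3.3, numpy 2.4.6 and matplotlib 3.10.9. Where a symbol had several gene IDs, the ID with the highest mean was used.

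The members and lists were chosen with earlier results of these data known. Named are the 10 members and all their peaks, every other selenoprotein that passed the filter, in each comparison up to 6 called genes of each list with the largest log2 fold change, and the 5 genes most like GPX4. A gene of the glutathione list that the rule names is not reported here. Other pseudocounts, filters, scalings, sample sets, a replicate block and leaving out each library were tried.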

Additional observations from a re-analysis of the deposited data

How the results depend on the processing

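With a mean of at least 5 FPKM fewer genes were tested, and 1780 were called lower under BPQD and 1564 under TiO2 against control, and 1371 higher and 1461 lower for BPQD against TiO2, in place of 2860, 2503, 2323 and 2273. Rescaling each library to the same sum (TPM) moved the share of higher genes among those called from 46.88% to 58.3% for BPQD against control. There 3164 genes were called higher and 2263 lower, in place of 2524 and 2860, so the larger count changed sides. For BPQD against TiO2 the share moved from 50.54% to 60.5%, where testing without a filter gave 61.53%. The count of the 10 members called higher under BPQD was 1 (SEPHS2) with rescaling and with median centring, and 0 to 1 leaving out 1 library. Under TiO2 it was 1 (SEPHS2) with only the 6 libraries compared, and 0 to 1 leaving out 1 library, where the gene was GPX1 without TiO2 replicate 1 and SEPHS2 without BPQD replicate 3. The cause was not tested. The sign turned for FTH1 for BPQD against control without control replicate 2 (−0.21, range leaving out 1 library −0.21 to 0.26), and with quantile normalization for PRDX5 for TiO2 against control (0.0677) and PRDX1 for BPQD against TiO2 (0.0314), while FTL for BPQD against control went to 0.00. The medians of the members kept to −0.47 to −0.27 for BPQD against control, −0.04 to 0.04 for TiO2 against control and −0.42 to −0.26 for BPQD against TiO2. Of the members' 6 m6A peaks for BPQD and 3 for TiO2, 4 and 3 had a p under 0.05. At a p under 0.01, at an FDR under 0.05 and with 1 peak per gene, 3 or 4 passed for BPQD and 2 or 3 for TiO2.

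Replicate numbers did not pair the libraries: deviations of same-numbered libraries correlated at −0.083 to 0.0733. With the replicate block, 2352 genes were called higher and 2644 lower for BPQD against control, 1907 and 2253 for TiO2 against control and 2100 and 2050 for BPQD against TiO2. SELENOM for BPQD against control and SELENOK for BPQD against TiO2 lost their call with the block.

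With 3 libraries per group and no depth, changes of SELENOF and of GPX1 under TiO2 are poorly bounded.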
